A study of Mus musculus with 9 samples.

Results

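The genes described here encode subunits of the transcription factor AP-1 and close partners: the FOS members Fos, Fosb, Fosl1 and Fosl2, the JUN members Jun, Junb and Jund, the ATF member Atf3, and the small MAF proteins Maff and Mafk. They were chosen by name, with earlier results of these data known. All 10 have a row among the 15109 genes of the deposited count and log2 tables. Their transcripts were followed across untreated, antigen-stimulated and taxinine-pretreated mouse mast cells. Antigen raised 9 of the 10, from 3.97-fold for Jund to 42.8-fold for Fosb, and left Mafk without a called change. After taxinine, Atf3, Junb, Jund, Fosl2 and Fos were lower than with antigen alone, and Jun was higher.

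AP-1 is a family of dimers that bind DNA through basic leucine zipper (bZIP) domains. FOS proteins pair with JUN proteins but not with each other, JUN proteins also pair among themselves, ATF3 pairs with JUN and ATF proteins, and small MAF proteins pair with FOS and with NRF and BACH factors. In mast cells, crosslinking of the IgE receptor activates MAP kinases and calcium signalling, which act on FOS and JUN genes and proteins, and AP-1 with NFAT is known to drive cytokine genes. Many of these genes belong to the immediate early and delayed early response, in which transcripts rise before any new protein is needed or soon after.

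Messenger RNA was sequenced from wild-type C57BL/6 bone marrow-derived mast cells in 3 groups of 3 libraries, with stranded polyA libraries and paired reads. All cells had grown for at least 4 weeks in 30% WEHI-3-conditioned medium, which supplies interleukin 3, and 20% fetal bovine serum. Control cells were labelled as an untreated normal control. BSA cells were sensitised with IgE against dinitrophenyl (anti-DNP-IgE) and then given the antigen DNP-BSA, and Taxinine cells received the same after 1 h of pretreatment with taxinine, a taxane diterpenoid of yew. The protocol text is the same for all samples and does not say separately whether Control cells received IgE, so Control may differ from BSA in IgE as well as antigen. The labels give no taxinine dose, vehicle, length of antigen exposure or group with taxinine alone. They speak of biological replicates without naming animals or cultures, so the p-values measure the spread between these libraries, which may be partly technical.

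Library totals ran from 8975371 to 14116976 counts. Levels are given as CPM, counts scaled to one common library size after correction with TMM factors (trimmed means of log ratios between libraries), and a limit of 3 counts corresponds to 0.192 to 0.347 CPM. All 12 mast cell markers were detected, and their summed level was 53700 to 55200 CPM in Control, 57600 to 59600 in BSA and 57600 to 58900 in Taxinine. Among them Hdc stood at 195 CPM in Control, 1208 in BSA and 1142 in Taxinine, so the sums include a marker that itself differed between groups. Of the 8 macrophage markers, 7 summed to 50.8 to 53.3, 52.3 to 60.4 and 51.1 to 53.4 CPM in the same order, and the 3 basophil markers to 1320 to 1340, 1290 to 1340 and 1200 to 1220. Detected neutrophil markers (3 of 7) summed to at most 4.86 CPM and B cell markers (2 of 4) to at most 2.28 in any library. The single eosinophil marker measured, Siglecf, of a list of 4, stood at 3.50 to 5.37 CPM in Control, 13.9 to 17.0 in BSA and 11.3 to 13.3 in Taxinine, and the single erythroid marker of 5 at 31.7 to 40.3 overall. The 4 dendritic and 5 T cell markers have no row in the filtered deposited tables, so their level is not known. The part of these differences in the results below was not tested, and in bulk RNA fewer cells of a type and less RNA per cell cannot be told apart.

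Sequence upstream of the start sites is shown first, because 9 of the 10 genes rose with antigen and promoters of this family are known to carry elements read by CREB, ATF and EGR factors. RefSeq start sites on GRCm38.p6 gave 11 windows for 9 of the 10 genes, 3 of them for Maff. Each was searched on both strands, over the 250 bases before the start, for the AP-1 site TGACTCA, the cyclic AMP response element TGACGTCA, the CArG box of serum response factor and the EGR sites GCGTGGGCG and GCGGGGGCG. The shorter element TGACG, which lies within TGACGTCA, and the JUN element TGACATCA were added after the sequences were seen. The 150 bases before the start follow, 5′ to 3′ on the gene's strand, for Fosb, Fos, Atf3, Jun and Junb and for the Maff window that holds the full response element. Fosl2 is not shown because its RefSeq window lies within a GENCODE exon of the gene. Jund is not shown because its RefSeq start lies 1210 bases upstream of the GENCODE start used for its counts. The windows shown for Atf3 and Maff do not precede the GENCODE gene start either. Counted as bases upstream of that start, their RefSeq starts lie at -34706 for Atf3 and -899 for Maff window 2. Both windows thus lie inside the GENCODE gene, and which start these cells use was not tested. Capitals mark the matches.
Fosb (chr7:19310046-19310195, minus strand): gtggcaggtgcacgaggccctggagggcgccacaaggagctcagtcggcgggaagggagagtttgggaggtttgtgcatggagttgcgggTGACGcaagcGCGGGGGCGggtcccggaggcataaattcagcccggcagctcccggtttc
Fos (chr12:85473740-85473889, plus strand): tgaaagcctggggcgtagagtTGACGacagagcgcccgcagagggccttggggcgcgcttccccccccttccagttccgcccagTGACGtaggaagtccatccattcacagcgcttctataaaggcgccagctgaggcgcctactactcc
Atf3 (chr1:191183334-191183483, minus strand): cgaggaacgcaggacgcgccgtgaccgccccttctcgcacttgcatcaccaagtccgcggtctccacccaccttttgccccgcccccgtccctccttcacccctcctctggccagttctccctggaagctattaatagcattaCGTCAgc
Jun (chr4:95052223-95052372, minus strand): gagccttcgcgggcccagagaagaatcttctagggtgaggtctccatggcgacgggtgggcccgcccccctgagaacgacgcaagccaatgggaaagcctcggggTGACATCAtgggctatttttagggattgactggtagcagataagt
Junb (chr8:84978749-84978898, minus strand): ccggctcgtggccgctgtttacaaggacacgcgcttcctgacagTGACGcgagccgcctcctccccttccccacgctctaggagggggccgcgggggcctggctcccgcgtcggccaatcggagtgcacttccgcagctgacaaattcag
Maff, window 2 (chr15:79347370-79347519, plus strand): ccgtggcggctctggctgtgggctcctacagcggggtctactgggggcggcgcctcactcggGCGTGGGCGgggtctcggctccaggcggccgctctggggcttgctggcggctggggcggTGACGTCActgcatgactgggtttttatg

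TGACG was found in 7 of the 11 windows, of 6 genes, against 17.8% of all 32851 RefSeq windows. Because TGACG and TGACATCA were added after these sequences were seen, their counts beside all windows are no independent evidence. The upstream window of Jund is counted among the 11. TGACG lies 129 to 125 and 66 to 62 bases before the Fos start, 60 to 56 before that of Fosb and 106 to 102 before that of Junb. On the opposite strand, TGACG lies 7 to 3 bases before the Atf3 start. Maff and Mafk also hold it. The full TGACGTCA occurred only in Maff among these windows, 29 to 22 bases before the start of window 2, and in 1.55% of all windows. TGACATCA, held by 2.93% of all windows, was found 45 to 38 bases before the Jun start and at the same distance in Maff window 3.

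GCGGGGGCG was found 50 to 42 bases before the Fosb start, 79 to 71 before that of Fosl2 and 56 to 48 before that of Mafk, and in 2.57% of all windows. GCGTGGGCG was found 88 to 80 bases before Maff window 2 and in 0.536% of all windows. Neither TGACTCA, held by 4.46% of all windows, nor the CArG box, held by 1.47%, was found in the member windows. Sequence further upstream than 250 bases was not searched, so sites there would be missed. Mafk, whose transcript was not called changed, holds both TGACG and GCGGGGGCG, so these matches do not separate it from Fosb. Matches are letters in a window, and no binding was measured.

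Antigen stimulation was examined first, by comparing BSA with Control. Of the 10 genes, 9 were called higher at an adjusted p under 0.05, against 16.2% of all genes, and 8 of them by at least 4-fold, against 1.54% of all genes. No member was called lower by edgeR with TMM factors, at an unadjusted p under 0.05 or by DESeq2, against 17.8% of all genes. Without TMM, edgeR on plain library totals and limma on the deposited log2 values each called 1 lower, Mafk. The libraries of the 2 groups did not overlap for 9 members, against 42.9% of all genes. The median log2 fold change of the 10 was 2.59, against -0.0041 for all genes. Because the members were chosen with earlier results known, their counts beside the shares of all genes, here and with taxinine, are no independent evidence.

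**Figure D1:**
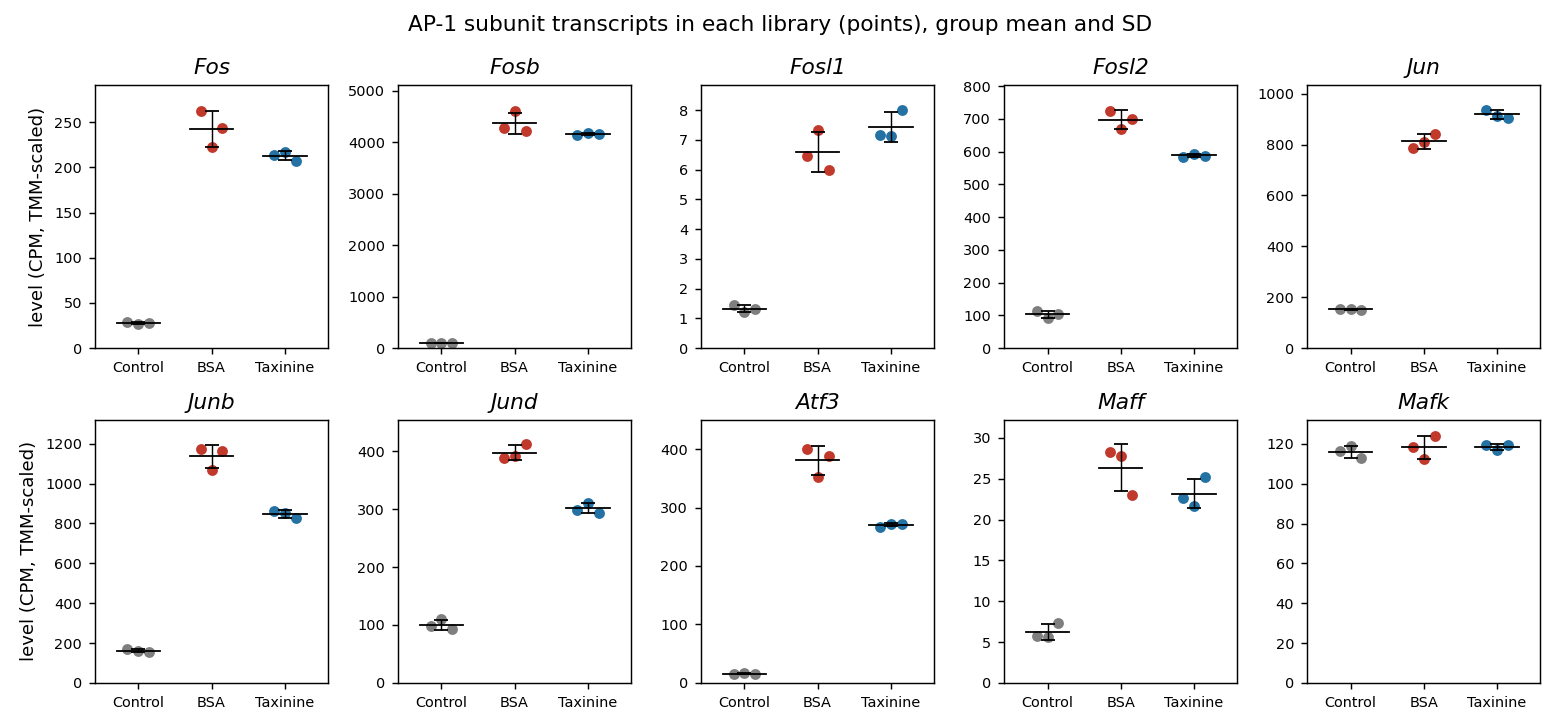
Level of each gene in CPM after TMM scaling (vertical axis, linear, from 0, scaled separately for each gene) in the 9 libraries. Points are libraries, the long line is the group mean and the error bar the SD of 3 libraries. Every gene but Mafk stands higher in all BSA and Taxinine libraries than in all Control libraries.

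Among the FOS members, Fosb (chr7:19302696-19310051, minus strand, GRCm38) changed most. FOSB is an activating FOS protein, and its gene also gives a shorter splice form that gene counts do not separate. Its level was 104, 105 and 97.0 CPM in the Control libraries, 4272, 4601 and 4226 with antigen alone and 4136, 4182 and 4158 after taxinine. All 6 antigen-treated libraries were high, all Control libraries were low, and Taxinine lay just under BSA without overlap. The log2 fold change for BSA against Control was 5.42 ± 0.05 (SE, n = 3 a group; edgeR adjusted p = 6.54e-49), the 18th highest of all genes tested.

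Fos (chr12:85473890-85477273, plus strand), the classical immediate early gene of the family, was measured at 29.2, 26.2 and 27.5 CPM in Control, 262.7, 222.3 and 243.1 with antigen alone (BSA) and 213.3, 217.3 and 207.6 after taxinine. Control libraries were all low, and the Taxinine libraries lay just under the lowest BSA library. Fos rose by 3.14 ± 0.06 on the log2 scale, or 8.79-fold (adjusted p = 1.48e-36). Its mean level with antigen alone was 242.7 ± 20.2 CPM (SD, n = 3).

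Fosl2 (chr5:32135801-32157842, plus strand) encodes FRA-2, a FOS protein without the strong activation domain of FOS. Its level was 112.5, 90.5 and 105.5 CPM in Control, 725.7, 669.0 and 700.0 with antigen alone (BSA) and 583.3, 594.4 and 588.0 after taxinine. The 3 groups did not overlap, with BSA highest. It rose 6.79-fold with antigen (log2 2.76 ± 0.05, adjusted p = 1.09e-36).

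Fosl1 (chr19:5447547-5455946, plus strand), which encodes the related FRA-1, was the least abundant member per kb of exon in each group. It gave 22, 19 and 20 counts in Control, or 1.45, 1.22 and 1.31 CPM, against 6.45, 7.33 and 6.00 CPM in BSA and 7.17, 7.13 and 8.01 in Taxinine. Control lay under both other groups, which overlapped. Fosl1 rose 4.96-fold, with the widest error of the 10 (log2 2.31 ± 0.19, adjusted p = 1.19e-13). It shares 1163 exon bases with Ccdc85b on the opposite strand, measured at 4.79, 4.35 and 3.88 CPM in Control, BSA and Taxinine, and the strand setting of the counting is not given in the sources used here, so its value is uncertain.

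All 3 JUN members rose, Junb most and Jund least. Junb (chr8:84974484-84978718, minus strand) encodes a JUN protein that is a weaker activator than JUN and can restrain it. Its level was 170.6, 159.4 and 156.7 CPM in Control, 1175, 1070 and 1164 with antigen alone (BSA) and 863.1, 850.5 and 825.2 after taxinine. BSA libraries were highest and the 3 groups did not overlap. The log2 fold change with antigen was 2.81 ± 0.05 (adjusted p = 3.54e-39).

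Jun (chr4:95049034-95052222, minus strand), the strongest activator of the JUN members, was measured at 153.0, 152.6 and 151.6 CPM in Control, 786.6, 809.7 and 843.6 with antigen alone (BSA) and 936.8, 914.1 and 904.7 after taxinine. Here the order of the antigen groups was the opposite of that of Junb, with all Taxinine libraries above all BSA libraries. Jun rose 5.34-fold with antigen (log2 2.42 ± 0.04, adjusted p = 6.71e-38).

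Jund (chr8:70698949-70700616, plus strand) encodes the JUN protein best known for its presence in resting cells. Its level was 97.8, 110.0 and 92.2 CPM in Control, 387.5, 392.1 and 412.6 with antigen alone (BSA) and 299.1, 310.6 and 293.8 after taxinine. The groups did not overlap. Jund rose by 1.99 ± 0.05 on the log2 scale (adjusted p = 4.83e-32), and was the only member called higher that fell short of 4-fold. Reads of the opposite strand could add to each JUN gene: Jun shares 232 exon bases with Junos (0.653, 0.950 and 0.507 CPM in Control, BSA and Taxinine), Junb 173 with Prdx2 (47.2, 47.3 and 44.5 CPM), and Jund 877 with Gm11175, which has no row in the deposited tables.

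Atf3 (chr1:191170296-191218039, minus strand) encodes a stress-induced ATF factor that often represses as a homodimer. Its level was 14.5, 16.1 and 15.4 CPM in Control, 400.4, 353.0 and 388.4 with antigen alone (BSA) and 267.3, 271.5 and 272.6 after taxinine. The groups stood well apart, with BSA highest. Atf3 rose 24.7-fold with antigen (log2 4.63 ± 0.06, adjusted p = 1.24e-42), the 27th highest change of all genes.

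The 2 small MAF genes parted. MAFF and MAFK have no activation domain of their own and act through their partners. Maff (chr15:79346621-79359076, plus strand) was at 5.69, 5.57 and 7.33 CPM in Control, 28.2, 27.7 and 23.0 with antigen alone (BSA) and 22.7, 21.7 and 25.2 after taxinine. It rose 4.27-fold with antigen (log2 2.09 ± 0.11, adjusted p = 3.07e-20), and the BSA and Taxinine libraries overlapped.

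Mafk (chr5:139791513-139802653, plus strand) was at 116.5, 119.0 and 113.0 CPM in Control, 118.4, 112.5 and 124.1 with antigen alone (BSA) and 119.5, 117.0 and 119.4 after taxinine. All 3 groups overlapped. The log2 fold change with antigen was 0.03 ± 0.05 (adjusted p = 0.746), with a 95% interval of -0.07 to 0.12. Plain library totals moved it to -0.20, where the median of all genes moved from -0.0041 to -0.23, so the value of Mafk relative to other genes stayed near 0. The third small MAF gene, Mafg, was at 131, 142 and 139 CPM and was not called either (log2 0.11 ± 0.05 with antigen, adjusted p = 0.0746).

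**Figure D2:**
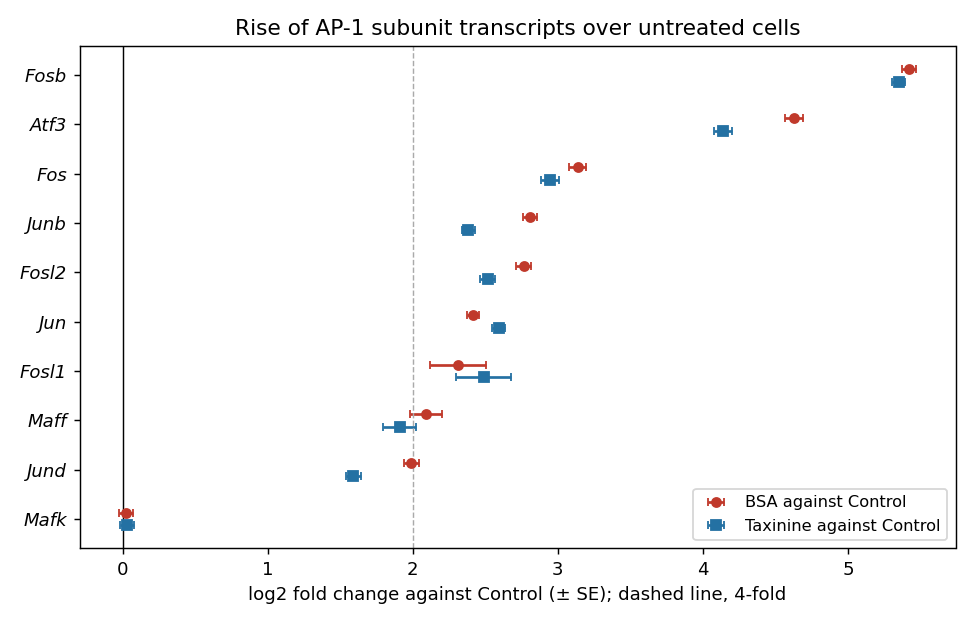
Log2 fold change over Control (horizontal axis) of each gene in BSA (red circles) and Taxinine (blue squares), with bars of 1 SE from edgeR. Both comparisons use the same 3 Control libraries. Fosb and Atf3 stand apart at the top, Mafk sits at 0, and for Jun and Fosl1 the Taxinine point lies to the right of the BSA point.

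The study's second question was what taxinine pretreatment changes in stimulated cells. Comparing Taxinine with BSA, 5 members were called lower, against 4.12% of all genes, and 1 was called higher, against 2.86%. In 7 members the 2 groups of libraries did not overlap, against 23.9% of all genes. The median log2 difference of the 10 was -0.19, against 0.0021 for all genes. All of these differences were small beside the antigen response.

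Atf3 fell most, to 0.711 of its BSA level (log2 -0.49 ± 0.05, SE, n = 3 a group; edgeR adjusted p = 1.25e-10). Junb fell to 0.745 (-0.43 ± 0.04, adjusted p = 4.76e-10) and Jund to 0.758 (-0.40 ± 0.05, adjusted p = 4.35e-08). Fosl2 fell to 0.843 (-0.25 ± 0.05, adjusted p = 3.51e-04). Each of these 4 kept its call in all 17 alternative analyses.

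Fos fell to 0.876 of its BSA level (-0.19 ± 0.05, adjusted p = 0.0103), but its call held in only 13 of the 17 alternatives, over which the adjusted p ran from 4.09e-04 to 0.152. It was lost with limma on the deposited log2 values (-0.16, adjusted p = 0.0578), with limma after quantile normalisation (-0.16, 0.078), without BSA replicate 1 (-0.13, 0.152) and without Taxinine replicate 3 (-0.17, 0.0815).

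Jun was the member that rose, by 0.18 ± 0.04 on the log2 scale or 1.13-fold (adjusted p = 0.00214). It was called in all 17 alternatives, with estimates of 0.15 to 0.24 and adjusted p from 8.80e-05 to 0.028. Fosl1 had the same estimate with a wider error and was not called (0.18 ± 0.14, adjusted p = 0.546, 95% interval -0.11 to 0.46).

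For Fosb the groups did not overlap, yet the difference was -0.07 ± 0.04 and was not called (adjusted p = 0.298, 95% interval -0.144 to 0.003). Maff gave -0.18 ± 0.09 (adjusted p = 0.265, interval -0.363 to -0.002) and Mafk 0.01 ± 0.05 (adjusted p = 0.976, interval -0.09 to 0.10). The intervals assume a normal distribution and did not decide the calls. That of Maff leaves out 0, although its unadjusted p in edgeR was 0.0545. The interval of Maff includes the difference measured for Fos, -0.19, and those of Fosb, Fosl1 and Mafk do not.

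**Figure D3:**
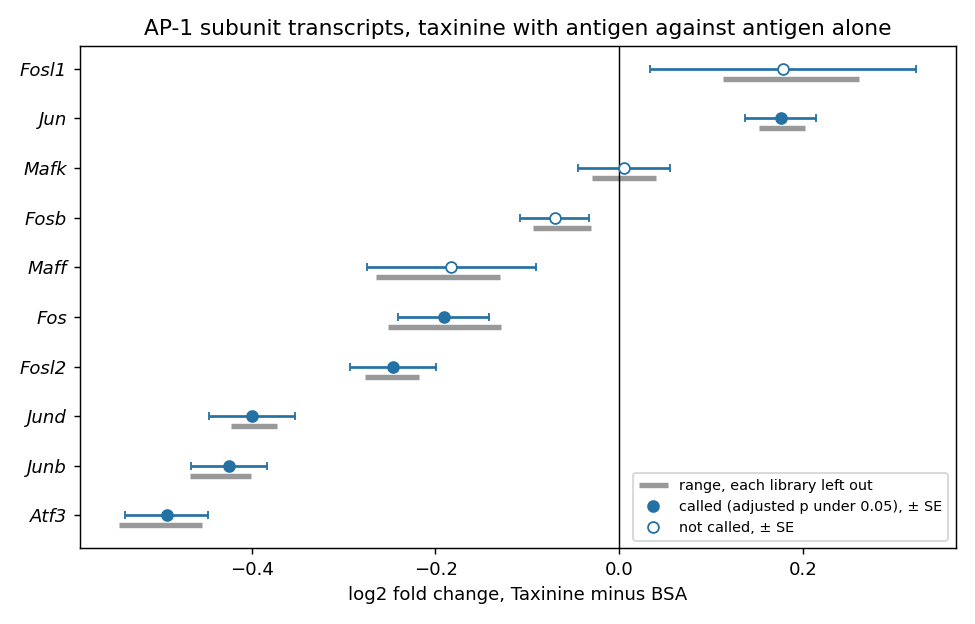
Log2 difference, Taxinine minus BSA (horizontal axis), for each gene. Filled circles were called, open circles were not, blue bars are 1 SE and grey bars the range of the estimate when each of the 9 libraries is left out. The grey ranges of Atf3, Junb and Jund lie left of -0.37, and that of Jun lies right of 0.

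Set against untreated cells, Taxinine still showed 9 members called higher, against 15.9% of all genes. None was called lower by edgeR with TMM factors, at an unadjusted p under 0.05 or by DESeq2, against 17.2% of all genes. Without TMM, edgeR on plain library totals and limma on the deposited log2 values again called Mafk lower. Log2 fold changes were 5.35 for Fosb, 4.14 for Atf3, 2.94 for Fos, 2.59 for Jun, 2.52 for Fosl2, 2.49 for Fosl1, 2.38 for Junb, 1.91 for Maff and 1.59 for Jund, with a median of 2.50 over the 10 against -0.011 for all genes. This comparison shares its libraries with the other comparisons and adds no separate evidence. As a share of the antigen rise in mean CPM, Taxinine libraries kept 67.6% for Jund, 69.8% for Atf3 and 70.2% for Junb. They kept 81.6% for Fosl2, 84.3% for Maff, 86.1% for Fos and 95.1% for Fosb, and reached 116% for both Jun and Fosl1. Among these, Maff, Fosb and Fosl1 were not called different from BSA.

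Levels were compared between genes only per kb of merged exon. The order of genes was not worked out with the longest transcript as length. That length is 6537 bases for Fosl2 and 2108 for Fos, against 9680 and 2352 of merged exon, so their order may depend on it. In Control, Junb led at 70.5 ± 3.21 CPM per kb (SD, n = 3), followed by Jund at 59.96 ± 5.44, Jun at 47.8 ± 0.23, Mafk at 29.8 ± 0.78 and Fosb at 16.3 ± 0.69. Fos (11.7 ± 0.63) and Fosl2 (10.6 ± 1.16) overlapped, and Atf3 (7.14 ± 0.37), Maff (2.39 ± 0.38) and Fosl1 (0.652 ± 0.059) came last. The resting pool was thus led by JUN transcripts, and its neighbours other than Fos and Fosl2 did not overlap.

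With antigen the order changed. Fosb led at 699 ± 32.8 CPM per kb, rank 44 of all genes against rank 2768 in Control, followed by Junb at 494 ± 25.0. Jun (255 ± 8.98) and Jund (238 ± 8.0) overlapped. Below them came Atf3 (177 ± 11.4), Fos (103 ± 8.60), Fosl2 (72.1 ± 2.94), Mafk (30.3 ± 1.5), Maff (10.2 ± 1.11) and Fosl1 (3.24 ± 0.33), none overlapping its neighbour. In Taxinine the order was the same, but Jun (288 ± 5.19) and Jund (181 ± 5.14) no longer overlapped, with Fosb at 666 ± 3.68 and Junb at 368 ± 8.39.

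Summed over 4 genes, the FOS level was 39.4 ± 1.83 CPM per kb in Control, 878 ± 24.6 in BSA and 821 ± 5.42 in Taxinine. Summed over 3 genes, the JUN level was 178 ± 6.45, 987 ± 32.0 and 836 ± 15.8. The FOS sum was 0.229, 0.207 and 0.227 of the JUN sum in the Control libraries, 0.884, 0.948 and 0.841 with antigen alone and 0.963, 0.982 and 1.00 after taxinine. FOS and JUN transcripts were therefore far from equal at rest and close to equal after antigen on this length, and the 3 groups did not overlap. With the longest transcript as length the mean ratios were 0.286, 1.23 and 1.38, so which family is ahead after antigen depends on the length used.

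Fosb made up 41.6% ± 2.42 of the FOS sum in Control, 79.6% ± 1.67 in BSA and 81.1% ± 0.17 in Taxinine. The share in BSA stood clear of Control, while BSA and Taxinine overlapped. Fos went from 29.8% to 11.8% and 11.0%, and Fosl2 from 27.0% to 8.22% and 7.41%, although both rose in level.

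In the JUN sum the shares moved differently in each comparison. Jun made up 26.5%, 26.1% and 27.8% in the Control libraries, 24.9%, 26.6% and 26.0% with antigen alone and 34.6%, 34.0% and 34.7% after taxinine. Control and BSA overlapped, and all Taxinine libraries were above both. Junb went from 39.6% ± 1.61 to 50.01% ± 1.45 and 44.0% ± 0.22, and Jund from 33.6% ± 2.09 to 24.1% ± 0.60 and 21.6% ± 0.48.

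**Figure D4:**
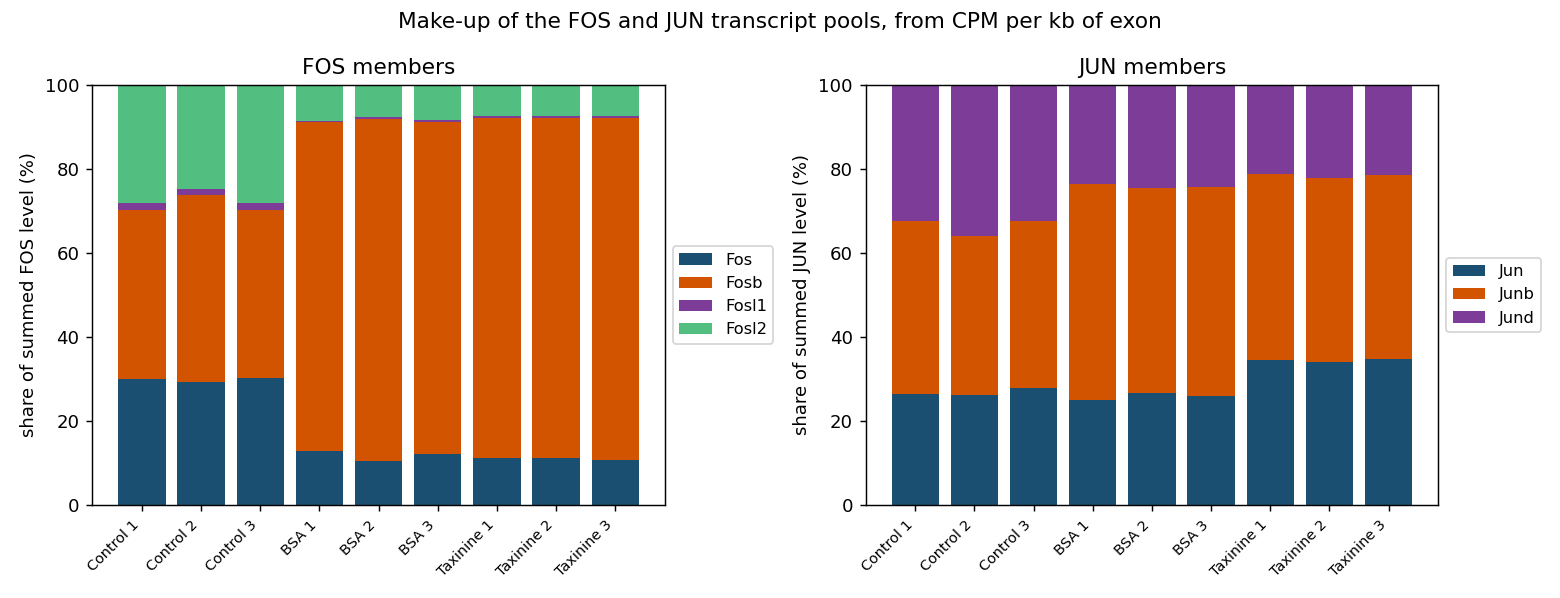
Share of each gene in the summed FOS level (left) and JUN level (right), in percent, for each of the 9 libraries, from CPM per kb of merged exon. Fosb fills about 80% of the FOS pool in all BSA and Taxinine libraries, and the Jun segment is tallest in the Taxinine libraries.

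Ratios within a library do not depend on how libraries are scaled, which makes them a direct view of the unequal change among the JUN genes. The pairs were chosen after the levels were seen. Jun stood at 0.647, 0.691 and 0.698 of Junb in Control, 0.483, 0.546 and 0.523 with antigen alone (BSA) and 0.783, 0.776 and 0.791 after taxinine. BSA was lowest, Taxinine highest, and no groups overlapped.

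Jun over Jund was 0.801 on average in Control, 1.07 in BSA and 1.60 in Taxinine, again without overlap. Junb over Jund was 1.18, 2.07 and 2.04, and the BSA and Taxinine libraries overlapped (exact two-sided permutation p = 0.7). Junb and Jund both fell with taxinine, and Jun rose. Fosb over Fos was 1.39, 6.82 and 7.37. For groups of 3 the exact permutation test cannot give a two-sided p below 0.1, which the non-overlapping comparisons reached, and over the 48 tests of shares, sums and ratios the smallest adjusted p was 0.112.

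**Figure D5:**
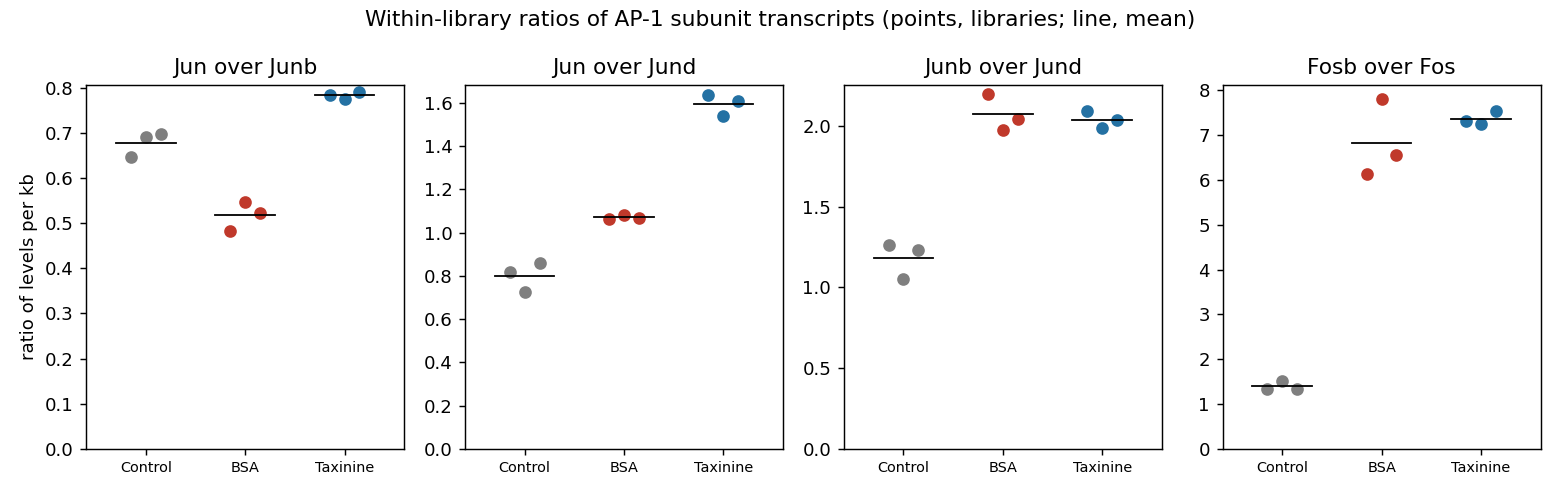
Ratios of levels per kb within each library (vertical axes, linear, from 0) for 4 pairs of genes. Points are libraries and lines are group means. Jun over Junb dips in BSA and is highest in Taxinine, while for Junb over Jund the BSA and Taxinine libraries overlap.

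Other bZIP genes moved in both directions. Of 33 measured, 9 were called higher and 4 lower with antigen, with a median log2 change of 0.05, against 16.2% and 17.8% of all genes. Under plain library totals 6 were higher and 18 lower. Nfil3, a repressor of the PAR-bZIP target sites, rose from 11.9 to 95.8 CPM (log2 3.01 ± 0.07) and was 80.5 in Taxinine (-0.25 ± 0.06 against BSA, called lower). Crem, a cyclic AMP-responsive factor with inducible repressor forms, rose by 1.66 ± 0.06 and Cebpb by 1.47 ± 0.09, and neither was called with taxinine. Atf4, a factor of the integrated stress response, rose from 650 to 1037 CPM (0.67 ± 0.04), and Nfe2, a partner of small MAF proteins, fell from 136 to 77.2 (-0.82 ± 0.05).

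With taxinine 2 of the 33 were called higher and 3 lower, against 2.86% and 4.12% of all genes. These counts rest on single libraries: none was called higher without BSA replicate 1 or Taxinine replicate 3, 1 was when Control 3, BSA 3, Taxinine 1 or Taxinine 2 was left out, and 1 was called lower without BSA replicate 1. Ddit3, which encodes the stress factor CHOP, rose from 154 to 181 CPM (0.24 ± 0.05, adjusted p = 0.00287), but its adjusted p was 0.0584 without BSA replicate 1 and 0.0556 without Taxinine replicate 3. Nfe2 fell further to 62.5 (-0.31 ± 0.06), and the call of Nfil3 was lost without BSA replicate 1 (adjusted p = 0.0678). Atf7 gave 0.18 ± 0.06 (adjusted p = 0.0373) and was called in 10 of 17 alternatives. Next to Fos on the chromosome lie the bZIP genes Jdp2, at a gap of 122 kb, and Batf, at 209 kb. Jdp2 was not called with antigen (43.6, 47.3 and 46.5 CPM in Control, BSA and Taxinine; log2 0.12 ± 0.06) and Batf fell from 15.8 to 11.9 CPM (-0.41 ± 0.10, adjusted p = 7.21e-04). Nfe2l2, which encodes the small MAF partner NRF2, rose from 203 to 288 CPM with antigen (0.50 ± 0.04). Of the 20 measured genes that lie nearest to the members on either side, 1 was called higher with antigen and 4 lower, against 16.2% and 17.8% of all genes. The one called higher, Ppp1cb beside Fosl2, gave 0.20 and became -0.03 under plain library totals. With taxinine edgeR called 1 of the 20 lower, Lsm4 beside Jund (log2 -0.38, adjusted p = 0.00178), near the -0.40 of Jund itself. Lsm4 was not called by edgeR with antigen (log2 0.18, adjusted p = 0.067), whereas Jund rose by 1.99. These neighbours are named after their values were seen.

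The genes that act upstream of AP-1 were taken as 3 lists. Of 38 genes of the MAP kinase cascade, 14 were called higher and 5 lower with antigen (median 0.09), against 16.2% and 17.8% of all genes, and 8 and 16 under plain library totals. Map3k8, the TPL2 kinase, rose from 16.7 to 129 CPM (2.95 ± 0.07) and fell to 102 with taxinine (-0.33 ± 0.06, adjusted p = 5.62e-05), the single gene of this list called lower there. Mapkapk2 rose by 1.05 ± 0.04, Map2k3 by 0.90 ± 0.04 and Map3k11 by 0.69 ± 0.05. With taxinine the main edgeR fit (TMM, all 9 libraries, no covariate) and DESeq2 called none of the 38 higher. In that edgeR fit 1 had an unadjusted p under 0.05. Limma on the deposited log2 values and edgeR with plain library totals each called 1. So did edgeR on the 2 groups alone and with the replicate block. Leaving out Control replicate 1 or 2, BSA replicate 2 or Taxinine replicate 3 also gave 1.

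Of 14 genes for SRF, its cofactors and CREB, 2 were called higher and 2 lower with antigen, near the 16.2% and 17.8% of all genes, or 1 and 11 under plain library totals. Srf rose by 0.60 ± 0.06, Mrtfa fell by 0.41 and Creb1 fell by 0.38. With taxinine none of the 14 was called by the main edgeR fit or DESeq2. In that edgeR fit 3 had an unadjusted p under 0.05, 2 of them higher and 1 lower. Limma on the deposited log2 values and edgeR with plain library totals each called 1. So did edgeR on the 2 groups alone, and without Control replicate 1 or 2 or BSA replicate 2 or 3.

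Of 18 genes for turnover of AP-1 proteins and transcripts, 4 were called higher and 1 lower with antigen, against 16.2% and 17.8% of all genes, or 3 and 11 under plain library totals. The 1 called lower, Khsrp, was not called without Control replicate 3, BSA replicate 1 or BSA replicate 3. The RNA-binding proteins of the tristetraprolin family bind AU-rich elements and promote decay of early response transcripts. Zfp36 rose by 2.38 ± 0.07, Zfp36l1 by 2.20 ± 0.05 and Zfp36l2 by 1.38 ± 0.04. With taxinine Zfp36l2 fell from 706 to 520 CPM (-0.44 ± 0.04) and Zfp36l1 from 172 to 151 (-0.18 ± 0.05), while Zfp36 stood at 73.2 and 74.2 CPM in BSA and Taxinine and was not called. The call of Zfp36l1 was lost without BSA replicate 1 (adjusted p = 0.0641), without Taxinine replicate 3 (0.0624) and with limma after quantile normalisation (0.0522).

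Genes described elsewhere as AP-1 targets rose broadly. Of 30 measured, 25 were called higher with antigen (median 1.28), against 16.2% of all genes, and 24 higher with 2 lower under plain library totals. With taxinine 10 were called lower and 3 higher (median -0.24), against 4.12% and 2.86% of all genes. Ptgs2, the inducible cyclooxygenase, rose from 5.15 to 130 CPM (4.65 ± 0.08) and fell to 100.6 (-0.36 ± 0.06). The cytokine genes Tnf (356 to 225 CPM, -0.66 ± 0.06), Il6 (942 to 650, -0.54 ± 0.05), Lif (1188 to 849, -0.48 ± 0.05) and Il1b (207 to 115, -0.85 ± 0.05) fell with taxinine after rising with antigen.

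The 3 targets called higher with taxinine were Hmox1, the heme oxygenase (587 to 680 CPM, 0.21 ± 0.04), and the metallothioneins Mt1 (179 to 202, 0.18 ± 0.05) and Mt2 (64.8 to 84.2, 0.39 ± 0.07). They are named here after their values were seen, and the call of Mt1 was lost without BSA replicate 2 (adjusted p = 0.132), Taxinine replicate 1 (0.0701) or Taxinine replicate 3 (0.156). Like Jun they were highest in Taxinine, and all 3 are also known targets of other stress-responsive factors. This list was drawn up with earlier results of these data known, and its count is no independent support for the AP-1 genes.

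By profile over the 9 libraries, the genes most like each member were named by the Pearson r of log2 CPM among 10154 genes. The libraries form 3 groups and share depth and scaling, so any gene with a similar step gives a high r. Atf3 was closest to Ccl4, a chemokine (r = 0.9998), Fos to Ccl7 (0.9996), which also led for Fosl2 (0.9993), and Fosb to Hdc, the histidine decarboxylase that makes histamine (0.9996). Junb was closest to M6pr (0.9997), with Rcan1, an inhibitor of calcineurin, next (0.9989). Jund was closest to Rhof (0.9988), Fosl1 to Ddx3x (0.9975), Maff to D16Ertd472e (0.9941) and Mafk to Bccip (0.9566).

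Jun was closest to Hk2, a hexokinase (0.9990), and to Srxn1, the sulfiredoxin that repairs oxidised peroxiredoxins (0.9989). Srxn1 stood at 100 CPM in Control, 670 in BSA and 787 in Taxinine, the same order of groups as Jun. Ccl4, nearest to Atf3, stood at 10.8, 555 and 389 CPM, highest in BSA as Atf3 was.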

How the data were processed

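Polyadenylated RNA of 9 mast cell libraries (3 each of Control, BSA and Taxinine, grouped by title) was used. Reads had been aligned with STAR 2.7.0f (builds named: mm10 and GRCm38), per the submitters' processing notes, which also name limma 3.11. No source used here names the counting program. The authors deposited whole-number counts for 15109 genes, already filtered (each has a count in at least 4 libraries), and log2 values, which equal log2(CPM + 1) from plain library totals to within 5e-05. The name given to the counts speaks of TMM normalisation, but the values are whole numbers and were used as unscaled counts. The counts were fitted with edgeR 4.0.16 (R 4.3.3; TMM factors, quasi-likelihood test, all 9 libraries, no covariate), with Benjamini-Hochberg adjustment over all 15109 genes and a threshold of 0.05, after a test on simulated data. The SE is the log2 fold change divided by the square root of F. Alternatives were edgeR with plain totals or RLE factors, DESeq2 1.42.0, and limma 3.58.1 on the deposited log2 values or after quantile normalisation. Further edgeR fits with TMM required at least 10 counts in 3 libraries, used the 2 groups alone or added a replicate block. Others left out each library in turn. Shares and ratios used exact two-sided permutation tests. Exon lengths and coordinates came from GENCODE on GRCm38, which holds 15106 of the identifiers, and upstream sequence from RefSeq.

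Members and gene lists were chosen with earlier results of these data known. All 10 members are named; from each list, up to 5 called genes with the smallest p for BSA against Control and up to 4 for Taxinine against BSA were eligible, and other names are marked as chosen later or are neighbours or dimer partners of members. Same-numbered libraries did not deviate together (r from -0.152 to 0.123), so the numbers were not used as pairs. One gene that the naming rule selects is not reported here. No protein sequence was used, and Fosl1 had no RefSeq window. Intervals and the 3-count limit cover counting error or library spread only.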

Additional observations from a re-analysis of the deposited data

How the results depend on the processing

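Over the members' log2 fold changes, 498 values under the alternatives kept their direction and side of the threshold, 4 (all for Fos, Taxinine against BSA, given above) kept direction but lost the call, and 8, all for Mafk, changed sign. Mafk against Control became -0.2025 for BSA (adjusted p = 4.69e-04) and -0.1714 for Taxinine (0.00326) with plain library totals, -0.2003 and -0.1694 with limma on the deposited log2 values, where it was the 1 member called lower in each comparison, and -0.1043 and -0.088 after quantile normalisation. Both of the first settings omit TMM, which moves the median of all genes to -0.23 or -0.18 for BSA against Control. With each library left out, Mafk ranged from -0.0095 to 0.0604 for BSA against Control, from -0.0302 to 0.0397 for Taxinine against BSA and from 0.0105 to 0.048 for Taxinine against Control.

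With the longest transcript as length, in the order Control, BSA and Taxinine, Fosb made up 47.76%, 83.64% and 84.94% of the FOS sum. Jun made up 24.22%, 22.75% and 30.76% of the JUN sum, Junb 45.43%, 55.99% and 49.96%, and Jund 30.35%, 21.25% and 19.28%. The FOS to JUN ratio became 0.2864, 1.233 and 1.383. A replicate block called 9, 6 and 9 members in BSA against Control, Taxinine against BSA and Taxinine against Control, as without it, and changed no member's call.

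Of all genes called in BSA against Control, 47.6% were higher, and 13.6% with plain totals or with limma on the deposited values; in Taxinine against BSA 40.9% were higher, against 57.6% and 59.2%. Depth limits Fosl1 and Maff most: Fosl1 had 19 to 22 counts in Control.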
